A study of Saccharomyces cerevisiae with 48 samples.

Results

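The genes described here are 42 budding yeast genes that copy DNA or make its building blocks: subunits of the origin recognition complex, the MCM helicase, the replicative polymerases and primase, replication factor C, replication protein A, initiation and fork factors, ribonucleotide reductase and the enzymes of thymidine nucleotide synthesis. The rule that sets the group lists them by name and uses no threshold on a measured value. All 42 stood among the 6713 ORFs of the authors' deposited table of pooled mRNA, and 19 stood among the 3301 genes with read counts. The other 23 were not in the count tables, whose genes all had at least 10 reads in every mRNA library. Why the 23 are absent was not tested. BY4743, a diploid laboratory strain of Saccharomyces cerevisiae, was grown at 30 °C in YPD, a rich medium with glucose, and its cells were separated by size with centrifugal elutriation. Cells of equal size were pooled at 40, 45, 50, 55, 60, 65, 70 and 75 fl, with 3 independent experimental replicates (A, B and C) per size. All groups share the strain and the medium and no group was treated, so that the groups differ in labelled cell size. From every pool came an mRNA library made from poly(A) RNA and a footprint library made from the fragments that ribosomes shield from RNase I.

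Replication begins when the origin recognition complex, with the loaders Cdc6 and Cdt1, places MCM helicase rings on DNA during G1. At the start of S phase, firing factors add Cdc45 and further proteins to the ring, and polymerases, the sliding clamp and single-strand binding protein then follow the open fork. Many yeast genes for fork proteins and for dNTP synthesis are known to be transcribed in a wave at the G1 to S transition through the factor MBF, whereas the MCM genes and CDC6 are known for a wave at the end of mitosis.

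Phase markers placed the sizes in the cycle. The median of the G1 cyclin genes CLN1 and CLN2 was highest at 60 fl (1.10 log2 relative to the mean over sizes), that of 8 core histone genes at 65 fl (1.03) and that of the mitotic cyclin genes CLB1 and CLB2 at 70 fl (1.00), all from the authors' deposited table. M/G1 genes (SIC1, CTS1 and EGT2) had their highest median, 1.40, at 75 fl in the authors' deposited table. The mRNA libraries held 248840 to 5797532 counted reads and the footprint libraries 26360 to 5659096, with 6 footprint libraries under 150000 reads. In 7 footprint libraries a single gene took over 5% of the reads. The 19 counted members had 10 to 2068 reads in an mRNA library (median 315.5) and 0 to 4793 in a footprint library (median 42), and 7 footprint libraries held at least 1 member with 0 reads. In bulk samples, fewer cells of a type and less RNA per cell cannot be told apart, which holds for every value below.

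Pooled mRNA was higher at 55 to 60 fl, around the sizes at which the G1 cyclins were highest, than at 40 to 45 fl for 33 of the 42 genes, beside 54.0% of all ORFs, in the authors' deposited table. The median difference between the mean of 55 and 60 fl and the mean of 40 and 45 fl was 0.80 log2 for the 42 genes, beside 0.06 for all 6383 ORFs with 8 values, in the authors' deposited table. That difference was at least 1 log2 in 19 of the 42 genes, beside 9.51% of all ORFs, and no member was lower by 1 log2, beside 4.89% of all ORFs, in the authors' deposited table. The highest value lay at 55 or 60 fl for 18 of the 42 genes, beside 11.8% of all ORFs, and at 75 fl for 13, beside 17.9%, in the authors' deposited table. The lowest value lay at 40 or 45 fl for 31 of the 42 genes, beside 49.3% of all ORFs. These pooled values have no replicates and were not tested. Of the 23 genes without counts, 14 were at least 1 log2 higher at 55 to 60 fl than at 40 to 45 fl, against 5 of the 19 counted genes, in the authors' deposited table. The tests below therefore cover the members with the smaller pooled differences more fully than the others.

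**Figure D1:**
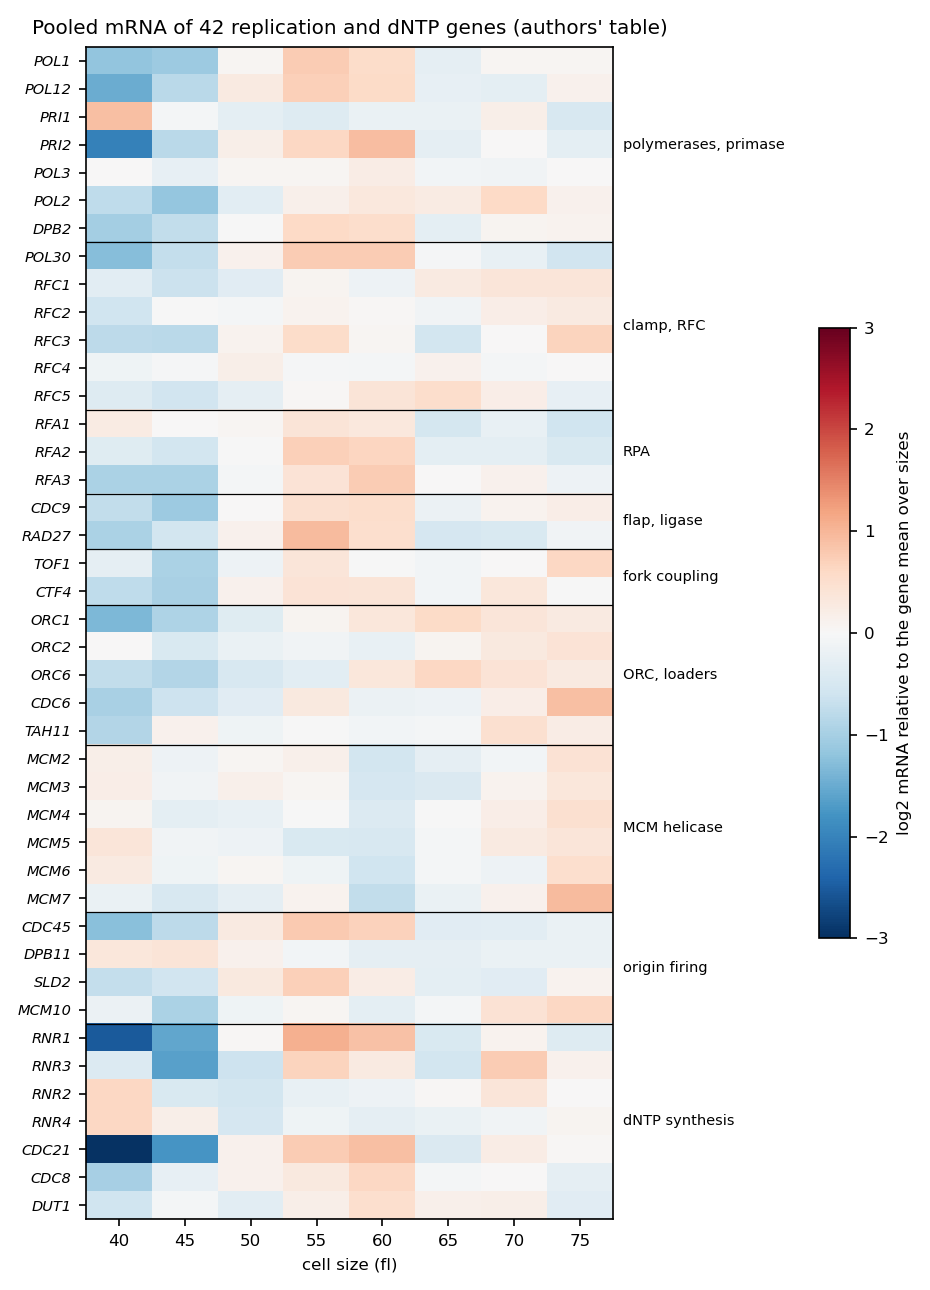
Pooled mRNA of the 42 genes (rows, grouped by role) at the 8 cell sizes (columns, fl), as log2 relative to the mean of each gene over sizes, from the authors' deposited table. CDC21 and RNR1 have the widest spans (3.87 and 3.59 log2). The 6 MCM genes are lowest at 60 fl, beside 12.6% of all ORFs, and highest at 75 fl, beside 17.9%.

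Among the origin proteins, the subunits of the origin recognition complex did not share 1 profile. ORC1, which carries the main ATPase of the complex, lay between −1.35 at 40 fl and 0.58 at 65 fl, in the authors' deposited table. ORC6, the subunit that binds Cdt1, lay between −0.89 at 45 fl and 0.63 at 65 fl in the authors' deposited table. ORC2 had a smaller span there, with −0.45 at 45 fl and 0.40 at 75 fl in the authors' deposited table. For the loaders, the authors' deposited table gave CDC6 −0.98 at 40 fl and 0.91 at 75 fl, and TAH11, which encodes yeast Cdt1, −0.89 at 40 fl and 0.49 at 70 fl.

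Replicated counts were available for ORC1, ORC6 and TAH11. ORC1 (YML065W, chromosome XIII, 142210 to 144954, plus strand, build R64) had 7.92, 7.10 and 7.08 log2 CPM (read counts scaled to a common library size) of mRNA at 55 fl and 8.24, 7.46 and 7.85 at 60 fl in replicates A, B and C. At 40 fl it had 5.97, 6.44 and 6.17 log2 CPM, and at 45 fl 6.42, 6.90 and 6.56. The 6 libraries of 55 to 60 fl all lay above the 6 libraries of 40 to 45 fl. The fitted difference was 1.26 log2 (SE 0.19), with an adjusted p of 5.10e-05 in edgeR's quasi-likelihood test over 3301 genes. ORC1 mRNA averaged 7.99 ± 0.11 log2 CPM at 65 fl (SD, n = 3), and its difference between 70 to 75 fl and 55 to 60 fl was 0.11 log2 (SE 0.18, edgeR adjusted p = 0.804).

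ORC6 (YHR118C, chromosome VIII, 344321 to 345628, minus strand) had 6.16, 5.71 and 5.52 log2 CPM of mRNA at 55 fl and 6.98, 6.11 and 6.65 at 60 fl. Its values were 5.29, 5.71 and 5.78 log2 CPM at 40 fl and 5.01, 5.77 and 5.49 at 45 fl. The 3 libraries of 60 fl and replicate A of 55 fl stood above all of those at 40 and 45 fl, and the other two libraries of 55 fl overlapped them. ORC6 was 0.73 log2 higher at 55 to 60 fl than at 40 to 45 fl (SE 0.18, edgeR adjusted p = 0.00478), and without replicate A the difference was 0.31 log2 and no longer passed. TAH11 differed by 0.15 log2 (SE 0.26, edgeR adjusted p = 0.694), with 5.41 to 6.50 log2 CPM at 55 to 60 fl and 4.94 to 6.71 at 40 to 45 fl, so that its groups overlapped.

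The MCM genes had a profile of their own in the pooled values. All 6 had their lowest value at 60 fl and their highest at 75 fl in the authors' deposited table. MCM7, which was not counted, spanned the widest range of the 6, with −0.73 at 60 fl and 0.96 at 75 fl, in the authors' deposited table. At 60 fl the authors' deposited table gave −0.55 for MCM2, −0.51 for MCM3, −0.40 for MCM4, −0.48 for MCM5 and −0.60 for MCM6. At 75 fl the authors' deposited table gave 0.43 for MCM2, 0.34 for MCM3, 0.48 for MCM4, 0.37 for MCM5 and 0.50 for MCM6. MCM10, which helps to activate the loaded helicase and is not part of the ring, also had its highest pooled value at 75 fl (0.61) in the authors' deposited table. The means of 3 libraries were lowest at 60 fl and highest at 75 fl for MCM2, MCM4, MCM5 and MCM6, whereas MCM3 was lowest at 65 fl (5.46 log2 CPM) and highest at 50 fl (6.12), with 5.86 ± 0.73 at 75 fl.

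In the replicated counts, none of the 5 counted MCM genes passed edgeR's test across sizes or in either contrast of sizes. DESeq2 passed MCM2 across sizes (adjusted p = 0.0270, beside 0.0977 in edgeR) and MCM5 in the later contrast, given next. MCM5 (YLR274W, chromosome XII, 691555 to 693882, plus strand) had 7.02, 6.88 and 6.96 log2 CPM at 70 fl and 6.87, 7.28 and 6.77 at 75 fl. At 55 fl it had 5.83, 6.56 and 6.79 log2 CPM, and at 60 fl 6.30, 6.76 and 6.02. Only the highest 55 fl library, at 6.79, reached the range of the 70 to 75 fl libraries. Its difference was 0.56 log2 (SE 0.18, edgeR adjusted p = 0.116), and DESeq2 gave 0.57 log2 with an adjusted p of 0.0321. MCM4 (YPR019W) had 6.04, 6.05 and 6.32 log2 CPM at 70 fl and 6.18, 6.57 and 5.92 at 75 fl. Its 55 fl libraries had 5.61, 5.96 and 6.39 log2 CPM and its 60 fl libraries 5.53, 5.74 and 5.51. The groups overlapped through the 55 fl libraries of replicates B and C, and MCM4 differed by 0.39 log2 (SE 0.15, edgeR adjusted p = 0.214). MCM6 (YGL201C) had 6.62, 6.70 and 7.00 log2 CPM at 70 fl and 7.05, 7.58 and 6.90 at 75 fl. Its 55 fl libraries had 6.38, 7.00 and 7.10 log2 CPM and its 60 fl libraries 6.24, 6.72 and 6.06. These groups overlapped as well, and MCM6 differed by 0.38 log2 (SE 0.17, edgeR adjusted p = 0.267).

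The differences of MCM2 and MCM3 were smaller. MCM2 (YBL023C) had 6.39, 6.23 and 6.64 log2 CPM at 70 fl and 6.45, 7.12 and 6.65 at 75 fl, whereas the 55 fl libraries had 6.51, 6.64 and 6.99 and the 60 fl libraries 5.97, 6.32 and 5.79. MCM3 (YEL032W) had 6.01, 5.83 and 6.40 log2 CPM at 70 fl and 5.28, 6.69 and 5.62 at 75 fl, whereas the 55 fl libraries had 5.63, 6.30 and 6.36 and the 60 fl libraries 5.33, 5.79 and 5.36. Both genes overlapped between the groups, and their 60 fl libraries lay below most others. MCM2 (0.22 log2) and MCM3 (0.24 log2) had an SE of 0.15 and 0.21 and edgeR adjusted p of 0.501 and 0.623. Between 70 to 75 fl and 55 to 60 fl, 6 of the 19 counted members, among them these 5 genes, differed by above 0 in all 3 replicate letters. Another 6 members differed by below 0 in all 3. The share of all genes that did so was not computed, so these counts cannot show a trait of the members. Whether a letter joins libraries of different sizes was not settled.

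The sizes within each contrast were not alike for these genes. At 55 fl the mean mRNA was 6.71 ± 0.25 log2 CPM for MCM2 and 6.09 ± 0.41 for MCM3, and at 60 fl it was 6.02 ± 0.27 for MCM2 and 5.49 ± 0.26 for MCM3 (SD, n = 3 each). Between 55 to 60 fl and 40 to 45 fl, the 5 genes differed by −0.31 log2 (MCM5) to 0.04 log2 (MCM4), and all groups overlapped. No edgeR adjusted p in that contrast was below 0.198 (MCM5).

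**Figure D2:**
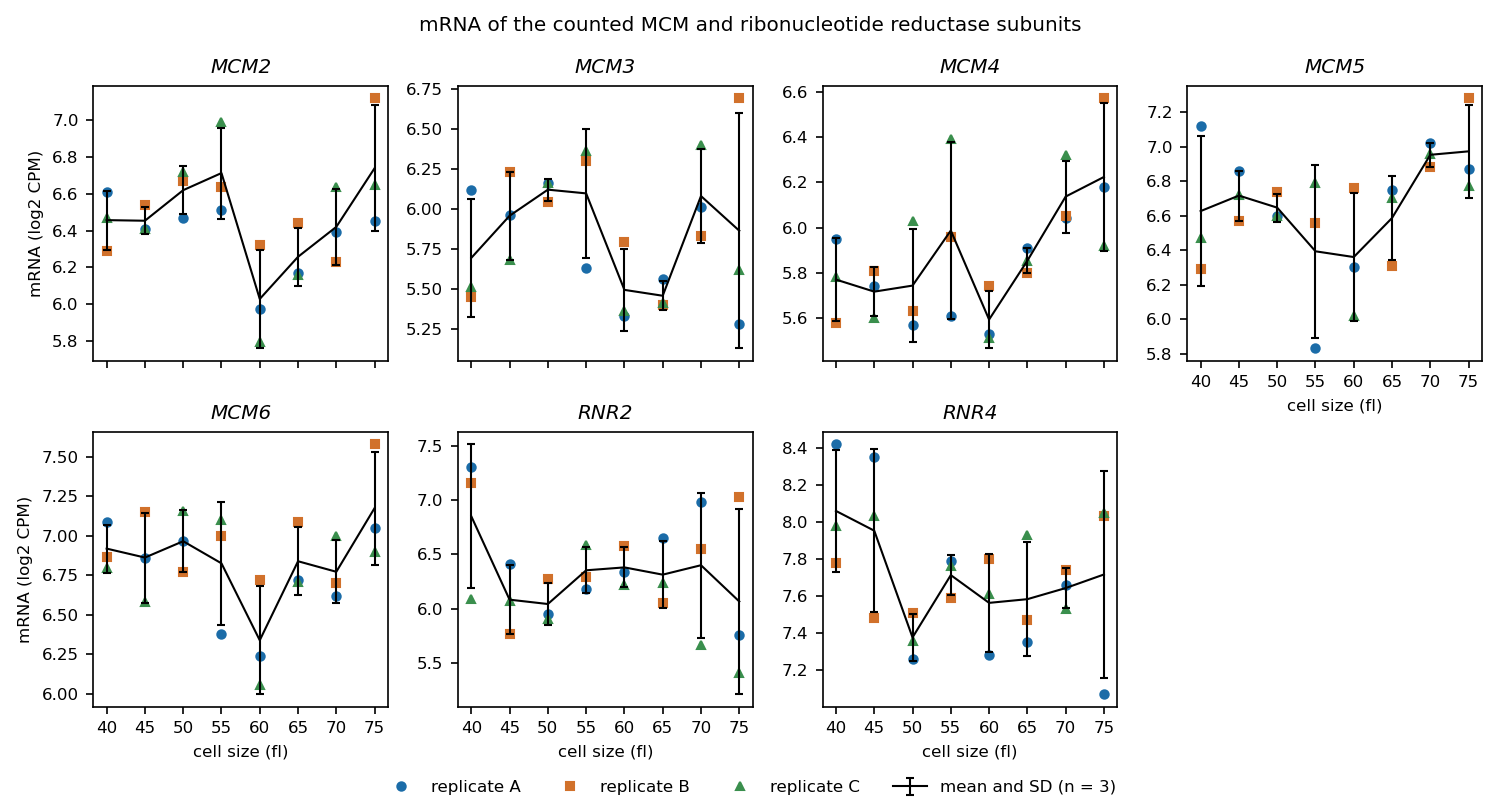
mRNA (log2 CPM, y axis, scale set per panel) of the 5 counted MCM genes and of RNR2 and RNR4 by cell size (fl), with points for replicates A, B and C and lines with bars for the mean and SD of 3 libraries. MCM2, MCM3 and MCM4 have low means at 60 fl (6.02, 5.49 and 5.59), and RNR4 is highest at 40 fl (8.06).

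Of the firing factors, CDC45, SLD2 and DPB11 split. CDC45, the helicase cofactor, lay at −1.26 at 40 fl and 0.78 at 55 fl in the authors' deposited table. SLD2, a CDK target needed for firing, differed by 1.11 log2 between 55 to 60 fl and 40 to 45 fl in the authors' deposited table. DPB11, which binds phosphorylated Sld2, had its highest pooled value at 45 fl (0.39), its lowest at 60 fl (−0.27) and 1 of the 4 narrowest spans of the 42 genes (0.65) in the authors' deposited table. DPB11 (YJL090C) had 5.99 to 6.23 log2 CPM of mRNA at 55 to 60 fl, with a median of 6.21, against 6.17 to 7.11 at 40 to 45 fl, with a median of 6.59. The ranges met only between 6.17 and 6.23. It was the only member that edgeR called lower in this contrast, by 0.50 log2 (SE 0.17, edgeR adjusted p = 0.0311, beside 15.8% of all genes lower). It no longer passed without replicate B (−0.39 log2) or without replicate C (−0.40 log2).

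The DNA polymerase genes were mostly low in the smallest cells and high at 55 to 60 fl. For polymerase alpha, the authors' deposited table gave POL1, the catalytic subunit, −1.19 at 40 fl and 0.77 at 55 fl, and POL12, its B subunit, −1.48 and 0.71 at the same sizes. The 2 primase subunits differed: PRI2, the large subunit, spanned 2.96 log2, with −2.03 at 40 fl and 0.92 at 60 fl, and PRI1, the catalytic subunit, was highest at 40 fl (0.91) and lowest at 75 fl (−0.48), in the authors' deposited table. Polymerase epsilon genes also differed in the size of their highest value, with DPB2 at 55 fl (0.59) and POL2, the catalytic subunit, at 70 fl (0.59) in the authors' deposited table. POL3, the catalytic subunit of polymerase delta, had the second narrowest span of the 42 genes (0.46) in the authors' deposited table.

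PRI2 (YKL045W, chromosome XI, 353493 to 355079, plus strand) had 8.27, 8.69 and 8.49 log2 CPM of mRNA at 55 fl and 7.79, 9.06 and 8.92 at 60 fl. At 40 fl it had 5.63, 6.58 and 6.17 log2 CPM, and at 45 fl 7.49, 6.43 and 6.85. All 6 libraries of 55 to 60 fl lay above the 6 of 40 to 45 fl. PRI2 had the largest fitted difference of the 19 counted members, 2.06 log2 (SE 0.27, edgeR adjusted p = 1.58e-05). Its libraries at 70 to 75 fl, from 6.91 to 8.21, overlapped those at 55 to 60 fl, and the difference of −0.84 log2 (SE 0.25) had an adjusted p of 0.0961 in edgeR and 0.0321 in DESeq2. POL3 (YDL102W) had 6.19 to 7.13 log2 CPM at 55 to 60 fl and 6.12 to 6.53 at 40 to 45 fl, a difference of 0.30 log2 (SE 0.17, edgeR adjusted p = 0.199).

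At the fork, the sliding clamp, single-strand binding protein and lagging-strand enzymes had higher pooled values at 55 to 60 fl, while the clamp loader genes were less uniform. POL30, the clamp PCNA, lay at −1.27 at 40 fl and 0.77 at 60 fl in the authors' deposited table. RFC1, RFC2 and RFC3 of the clamp loader had their highest pooled value at 75 fl, RFC5 at 65 fl and RFC4 at 50 fl in the authors' deposited table. RFC4 had the narrowest span of the 42 genes, 0.32 log2, and RFC3 was the loader subunit with the largest difference between 55 to 60 fl and 40 to 45 fl, 1.08 log2, in the authors' deposited table. RFC2 and RFC4 mRNA differed by 0.29 log2 (SE 0.22) and 0.05 log2 (SE 0.17) in the counts, with edgeR adjusted p of 0.313 and 0.87.

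The subunits of replication protein A, which coats single-stranded DNA, had pooled differences between 55 to 60 fl and 40 to 45 fl of 0.23 log2 for RFA1, 1.13 for RFA2 and 1.53 for RFA3 in the authors' deposited table. RFA3 (YJL173C, chromosome X, 96161 to 96529, minus strand) had 7.83, 9.04 and 8.52 log2 CPM at 55 fl and 8.25, 9.10 and 8.84 at 60 fl. Its values were 7.08, 6.70 and 5.78 log2 CPM at 40 fl and 7.54, 6.49 and 6.90 at 45 fl, so that the groups did not overlap. The difference was 1.82 log2 (SE 0.34, edgeR adjusted p = 0.000618). RFA3 also varied within a size, with a replicate SD of 1.14 log2 at 50 fl.

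RAD27 (YKL113C, chromosome XI, 224727 to 225875, minus strand) encodes the flap endonuclease that trims Okazaki fragments. It had 8.61, 8.78 and 8.69 log2 CPM of mRNA at 55 fl and 7.72, 8.47 and 8.31 at 60 fl. The 40 fl libraries had 6.77, 5.82 and 5.32 log2 CPM and the 45 fl libraries 7.83, 6.91 and 6.36. The groups overlapped through 1 library, replicate A of 45 fl, which stood above replicate A of 60 fl. RAD27 was 1.77 log2 higher at 55 to 60 fl (SE 0.26, edgeR adjusted p = 4.20e-05). It was also the only member that edgeR called lower at 70 to 75 fl than at 55 to 60 fl, by 1.00 log2 (SE 0.25, edgeR adjusted p = 0.0427), beside 0.454% of all genes lower. Its 70 fl libraries had 6.85, 7.77 and 6.96 log2 CPM and its 75 fl libraries 7.68, 7.42 and 7.81, of which 2 stood above replicate A of 60 fl. Without replicate B that adjusted p was 0.493 and without replicate C 0.438, while the difference was −0.99 and −0.95 log2. CDC9, the DNA ligase that seals the trimmed fragments, and CTF4, which links helicase and polymerase alpha, differed by 1.40 and 1.26 log2 between 55 to 60 fl and 40 to 45 fl in the authors' deposited table. TOF1, a fork protection factor, had its highest value at 75 fl (0.61) and its lowest at 45 fl (−0.94) in the authors' deposited table.

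**Figure D3:**
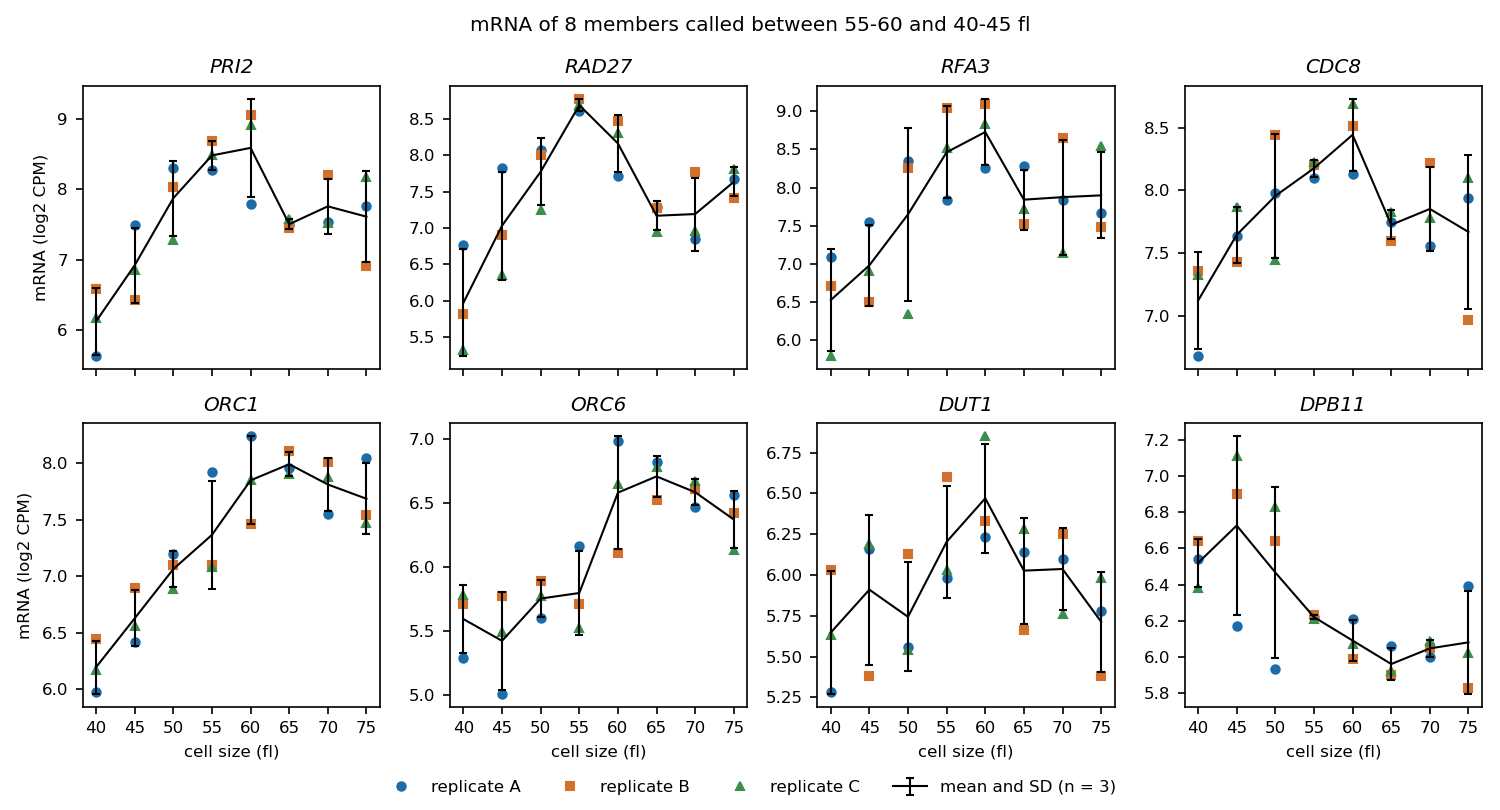
mRNA (log2 CPM, y axis, scale set per panel) by cell size (fl) of the 8 members that passed the test between 55 to 60 and 40 to 45 fl, with points for replicates A, B and C and lines with bars for the mean and SD of 3 libraries. PRI2 and RAD27 have means of 8.48 and 8.69 at 55 fl, against 6.12 and 5.97 at 40 fl, and DPB11 is the only 1 of the 8 that is lower at 55 to 60 fl.

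The dNTP genes held the 2 widest spans of the 42 genes and also 2 genes that were highest in the smallest cells. CDC21, thymidylate synthase, spanned 3.87 log2, with −2.97 at 40 fl and 0.90 at 60 fl, in the authors' deposited table. RNR1, the large subunit of ribonucleotide reductase, spanned 3.59 log2, and its difference between 70 to 75 fl and 55 to 60 fl was −1.11 log2, in the authors' deposited table. RNR3, the large subunit known for induction by DNA damage, had a different profile, with a low of −1.63 at 45 fl, 0.67 at 55 fl, −0.55 at 65 fl and a high of 0.75 at 70 fl, in the authors' deposited table. RNR1 and RNR3 are paralogs, and no label or header says how the authors assigned reads that match both, so the values of both are uncertain.

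The small-subunit genes RNR2 and RNR4 did not share the profile of RNR1. Both were highest at 40 fl (0.62 and 0.63) and lowest at 50 fl (−0.56 and −0.50) in the authors' deposited table. RNR2 (YJL026W, chromosome X, 392404 to 393603, plus strand) had 6.18, 6.29 and 6.59 log2 CPM at 55 fl and 6.34, 6.58 and 6.22 at 60 fl, whereas the 40 fl libraries had 7.30, 7.16 and 6.09 and the 45 fl libraries 6.41, 5.77 and 6.07. RNR4 (YGR180C, chromosome VII, 855264 to 856301, minus strand) had 7.79, 7.59 and 7.76 log2 CPM at 55 fl and 7.28, 7.80 and 7.61 at 60 fl, whereas the 40 fl libraries had 8.42, 7.78 and 7.98 and the 45 fl libraries 8.35, 7.48 and 8.03. The groups overlapped for both genes. In RNR2 the replicates A and B of 40 fl stood above all other libraries of these sizes. The differences were −0.16 log2 (SE 0.25, edgeR adjusted p = 0.673) for RNR2 and −0.40 log2 (SE 0.19, edgeR adjusted p = 0.111) for RNR4.

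CDC8 (YJR057W, chromosome X, 544062 to 544712, plus strand) encodes thymidylate kinase, which acts after thymidylate synthase. It had 8.10, 8.20 and 8.23 log2 CPM of mRNA at 55 fl and 8.13, 8.51 and 8.69 at 60 fl. At 40 fl it had 6.68, 7.36 and 7.33 log2 CPM, and at 45 fl 7.64, 7.43 and 7.87. These groups did not overlap, and the difference was 0.93 log2 (SE 0.21, edgeR adjusted p = 0.00247). DUT1, the dUTPase that keeps uracil out of DNA, had 5.98 to 6.85 log2 CPM at 55 to 60 fl (median 6.28) and 5.28 to 6.19 at 40 to 45 fl (median 5.83). Its difference of 0.60 log2 (SE 0.20) had an edgeR adjusted p of 0.0284, and it did not pass when any 1 of the 3 replicates was left out, with differences of 0.52 to 0.66 log2.

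Over the counted members as a list, 6 of 19 passed edgeR's F-test across the 8 sizes, beside 26.0% of all genes: ORC1, ORC6, PRI2, RAD27, RFA3 and CDC8. That share is near the background. Their adjusted p were 0.000188 for ORC1, 0.000653 for ORC6, 0.000672 for PRI2, 0.000759 for RAD27, 0.0252 for RFA3 and 0.0401 for CDC8 in edgeR. Without replicate C none of the 19 passed across sizes, and without replicate B 3 did, beside 111 and 243 of all 3301 genes. DESeq2 passed 9 of the 19, beside 1394 of all genes, adding MCM2, DPB11 (adjusted p = 0.0177) and DUT1 (adjusted p = 0.0469). Between 55 to 60 fl and 40 to 45 fl, 7 of 19 were higher, beside 13.5% of all genes. When a replicate was left out 5 or 6 were higher, beside 278 to 918 of all genes in either direction. In 4 of the 19, PRI2, RFA3, ORC1 and CDC8, the 6 libraries at 55 to 60 fl all lay above the 6 at 40 to 45 fl, beside 4.42% of all genes. The median difference was 0.15 log2 for the 19 members and −0.02 log2 for all 3301 genes. Between 70 to 75 fl and 55 to 60 fl no member was higher in edgeR, beside 1.09% of all genes. At an unadjusted p under 0.05, 3 were higher (MCM4, MCM5 and MCM6), beside 299 of 3301 genes. DESeq2 called 1 higher (MCM5), beside 146 of all genes in either direction.

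Other replication and dNTP genes were read beside the members, from a list of 38 genes of which 14 were counted. Of the 14, 7 were higher at 55 to 60 fl than at 40 to 45 fl in edgeR, beside 13.5% of all genes, and 2 were lower, beside 15.8%. The median difference of the 14 was 0.58 log2, beside −0.02 log2 for all 3301 genes. PSF3, a subunit of the GINS complex that joins Cdc45 on the helicase, averaged 6.95 ± 0.21 log2 CPM at 55 fl and 7.09 ± 0.10 at 60 fl, whereas the means were 5.63 ± 0.16 at 40 fl and 6.01 ± 0.14 at 45 fl (SD, n = 3 each). It was 1.23 log2 higher (edgeR adjusted p = 1.18e-05), and PSF1, another GINS subunit, 1.02 log2 higher (edgeR adjusted p = 0.000446). TOP2, topoisomerase II, was 1.24 log2 higher (edgeR adjusted p = 0.000216), and POL31, a subunit of polymerase delta, 0.94 log2 higher (edgeR adjusted p = 0.000224), whereas the catalytic subunit gene POL3 differed by 0.30 log2. The 2 lower genes were ORC5 (−0.66 log2) and DPB4 of polymerase epsilon (−0.67 log2). In the authors' deposited table, 11 of the 38 genes were at least 1 log2 higher at 55 to 60 fl, against 607 of 6383 ORFs.

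Ribosome footprints of the members were tested in the same way. CDC8 alone of the 19 passed edgeR's F-test across sizes (adjusted p = 0.0135), beside 0.515% of all genes. With the replicate letter as a block CDC8 did not pass (edgeR adjusted p = 0.144) and ORC1 did (0.0493). CDC8 had 9.84 log2 CPM of footprints in replicate A and 9.32 in replicate C of 60 fl and 9.96 in replicate A of 70 fl, whereas its other 21 libraries lay between 0.57, the value of 0 reads, and 6.78, with a median of 4.98. ORC1 was likewise high in those 3 libraries, with 7.92 to 10.85 log2 CPM, against 0.57 to 9.60 and a median of 5.37 in the other 21, and its adjusted p was 0.133 in edgeR. In the same 3 libraries the gene FAR11 took 9.65%, 25.1% and 16.3% of all reads. Its part in the CDC8 and ORC1 values was not tested. With the 7 libraries in which 1 gene took over 5% of reads left out, 60 fl kept only replicate B. The CDC8 difference between 55 to 60 fl and 40 to 45 fl was then 0.42 log2, beside 2.42 log2 with all libraries. With those libraries left out, the ORC1 difference was −0.08 log2, beside 2.39 log2 with all.

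No member passed between 55 to 60 fl and 40 to 45 fl in footprints, beside 0.0% of all genes higher or lower in edgeR. At an unadjusted p under 0.05, 5 members were higher, beside 105 of 3301 genes, and DESeq2 passed 0 members, beside 13 genes in either direction. CDC8 and ORC1, high in the 60 fl libraries with many FAR11 reads, were among the 5. PRI2 footprints differed by 1.67 log2 (SE 0.55, edgeR adjusted p = 0.323), beside 2.06 log2 in mRNA, and RAD27 footprints by 1.50 log2 (SE 0.55, edgeR adjusted p = 0.409), beside 1.77 log2 in mRNA. RAD27 had 32, 173 and 430 footprint reads at 55 fl and 10, 119 and 0 at 60 fl, whereas the 40 fl libraries had 45, 17 and 66 and the 45 fl libraries 29, 25 and 42. Replicate C of 60 fl, with 116437 reads in all, thus gave no RAD27 read. Without replicate A, PRI2 (2.45 log2, edgeR adjusted p = 0.00361), RAD27 (1.99 log2, edgeR adjusted p = 0.0193) and CDC8 (1.98 log2, edgeR adjusted p = 0.0244) passed, beside 277 of all 3301 genes in either direction. CDC8 footprints differed by 0.32 log2 in replicate B and 2.76 log2 in replicate C. In the 60 fl library of replicate C, FAR11 took 25.1% of reads. Between 70 to 75 fl and 55 to 60 fl no member passed in footprints either, beside 0.0% of all genes in edgeR. In that contrast 2 members, PRI2 and RAD27, were lower at an unadjusted p under 0.05, beside 25 of 3301 genes. The DESeq2 result of this footprint contrast was not kept.

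**Figure D4:**
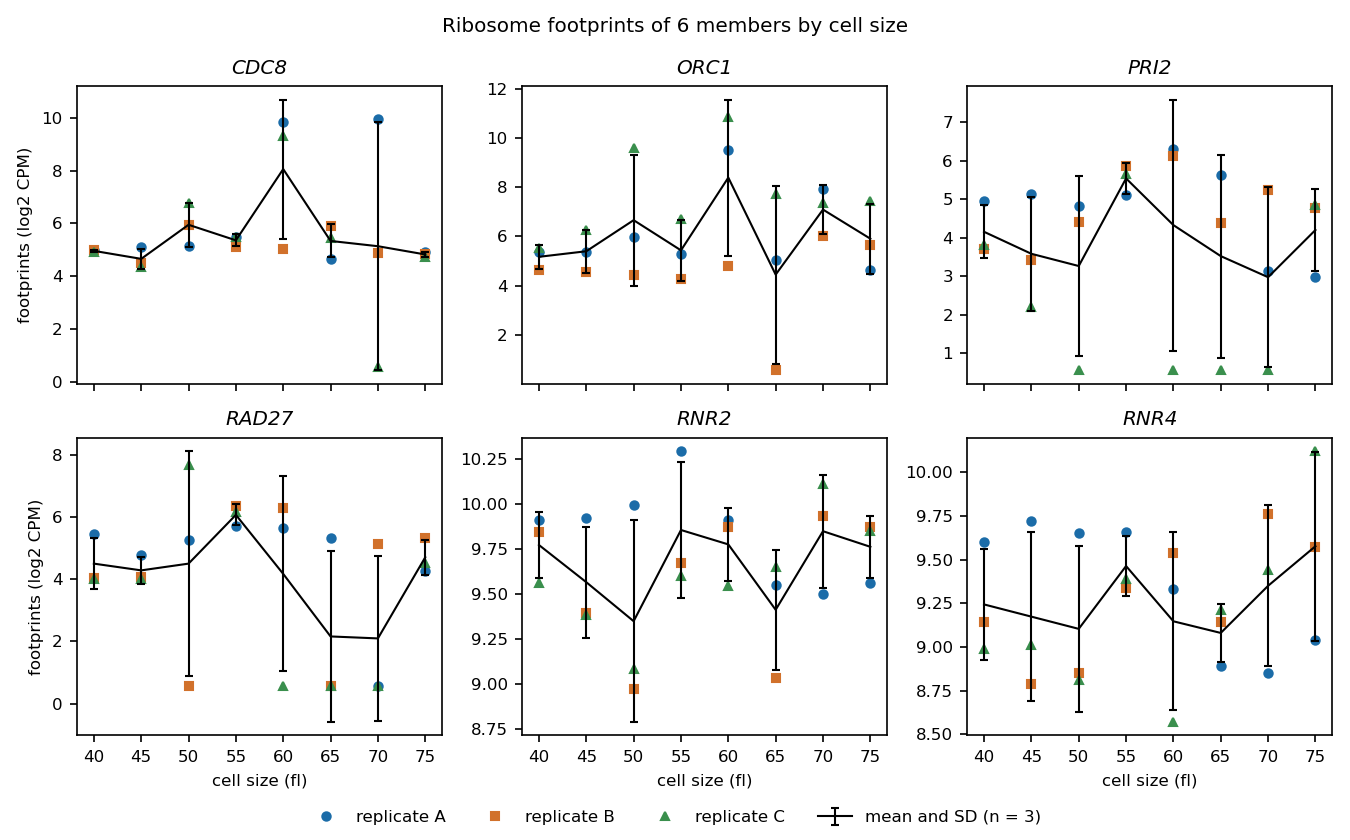
Ribosome footprints (log2 CPM, y axis, scale set per panel) by cell size (fl) of CDC8, ORC1, PRI2, RAD27, RNR2 and RNR4, with points for replicates A, B and C and lines with bars for the mean and SD of 3 libraries; points at 0.57 have 0 reads. The high CDC8 points are replicates A and C of 60 fl (9.84 and 9.32) and replicate A of 70 fl (9.96), and all RNR2 points lie between 8.97 and 10.29.

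Translational efficiency, footprints relative to mRNA, was compared between the same sizes as an interaction in 1 model of 48 libraries. No member passed, beside 0.0% of all genes in edgeR, and DESeq2 passed 0 members, beside 14 genes. At an unadjusted p under 0.05 CDC8 was higher (1.49 log2, SE 0.71) and DUT1 (−0.77 log2, SE 0.36) and ORC6 (−0.82 log2, SE 0.40) were lower, beside 115 genes higher and 144 lower of 3301. For PRI2, RFA3 and RAD27, the members with the largest mRNA differences, the interaction was −0.32 log2 (SE 0.59), −0.67 log2 (SE 0.61) and −0.24 log2 (SE 0.57), and the adjusted p in edgeR were 0.932, 0.841 and 0.946.

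The level of footprints relative to mRNA, averaged over sizes, differed widely between members. Levels scaled by gene length were taken from the authors' deposited log2 table of levels per library, over 24 mRNA libraries and the 18 footprint libraries with at least 150000 reads. At 50 and 65 fl only replicate A had that many footprint reads. RNR2 and RNR4, which form the small subunit together, had footprint levels of 9.55 ± 0.30 and 9.45 ± 0.36 (log2, SD over 18 libraries), beside mRNA levels of 5.93 ± 0.56 and 7.71 ± 0.37 (SD over 24 libraries). RNR4 footprints were above RNR2 footprints in 9 of 18 libraries, with a mean difference of −0.10 ± 0.28 log2, whereas RNR4 mRNA was above RNR2 mRNA in 24 of 24 libraries, by 1.78 ± 0.54 log2. RNR2 footprints minus mRNA, in log2 CPM, ranged from 2.52 to 4.43 over 18 pools with a mean of 3.36, at the percentile 98.6 of all genes, and RNR4 averaged 1.61, at the percentile 93.5. The median over all 3301 genes was −1.20 log2.

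MCM3 stood apart from the other counted MCM genes in the same measure. Its footprint level was above that of MCM2, MCM4, MCM5 and MCM6 in 18 of 18 libraries, by 1.05 ± 0.59 (MCM2), 1.30 ± 0.68 (MCM4) and 1.08 ± 0.50 log2 (MCM5), and MCM6 minus MCM3 was −1.19 ± 0.56 log2. Its mRNA level was not above that of MCM2 or MCM5 in any of 24 libraries, with mean differences of −0.80 ± 0.26 and −1.16 ± 0.36 log2, and MCM6 mRNA was above it in 24 of 24, by 0.94 ± 0.32 log2. Against MCM4, MCM3 mRNA was higher in 9 of 24 libraries, with a mean difference of −0.11 ± 0.35 log2. MCM3 footprints minus mRNA averaged 1.36 log2 (percentile 90.9), whereas the other 4 genes averaged −0.80 (MCM5) to 0.01 (MCM4). Mean footprints relative to mRNA were low for RFA3 (−2.93 log2, percentile 13.9), PRI2 (−2.90, percentile 14.1) and RAD27 (−2.63, percentile 17.8). CDC8 had a mean of −2.28 log2 and a median of −2.80, with a highest pool of 2.39, against a median of −2.48 for RAD27. The 2 clamp loader genes also differed by assay, with RFC2 minus RFC4 at −0.18 ± 0.79 log2 in footprints and at 1.03 ± 0.38 log2 in mRNA, where RFC2 was higher in 24 of 24 libraries. Footprint and mRNA libraries were made by different protocols, so that differences between genes in this ratio can also hold a gene's own recovery in each protocol, which was not tested.

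**Figure D5:**
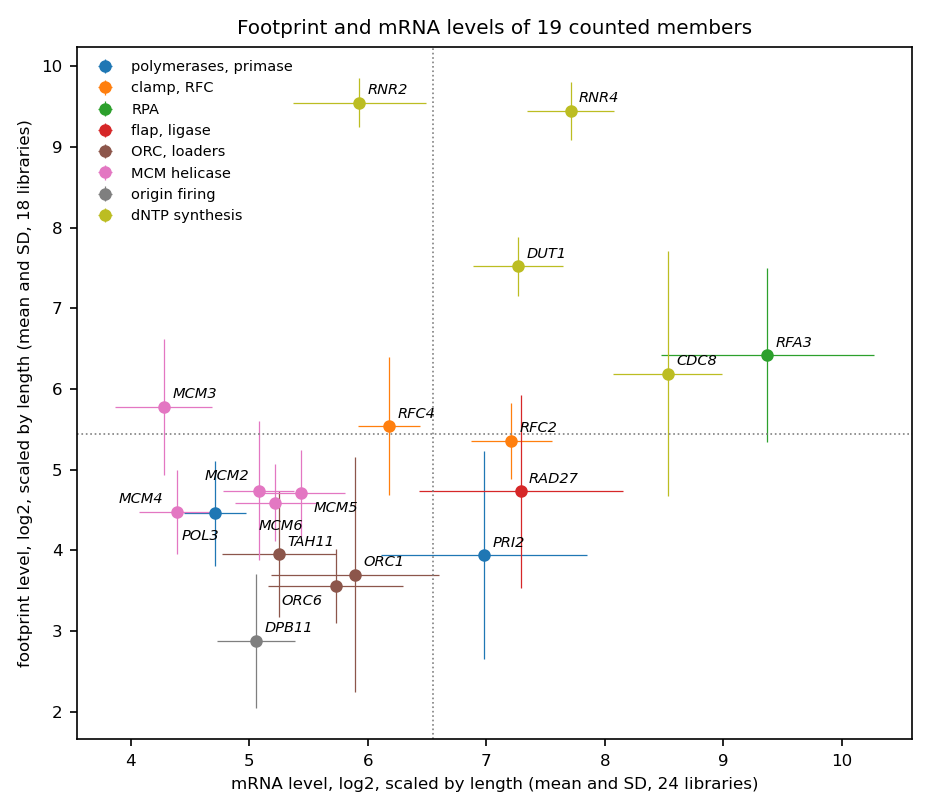
Footprint level (y axis) against mRNA level (x axis) of the 19 counted members, both log2 scaled by gene length from the authors' deposited table of levels, as means with SD over 18 footprint and 24 mRNA libraries and coloured by role; dotted lines mark the medians of all genes (5.44 and 6.55). RNR2 and RNR4 share a footprint level near 9.5 at mRNA levels of 5.93 and 7.71, and MCM3 has the lowest mRNA level of the 19 (4.28) with a footprint level of 5.78.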

How the data were processed

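Poly(A) mRNA and ribosome footprints were measured in 24 libraries each, 3 per labelled size. Per the submitters' processing notes, build R64 and the tools RSEM 1.2.20, TopHat2 2.1.0, Bowtie 1.1.2, SAMtools 1.3-1, cutadapt 1.8 and bcl2fastq 2.17.1.14 were used, with roles not stated. The authors deposited whole-number read counts, not normalized, for 3301 genes in 2 tables whose headers name no assay. The assay was found by comparison with the log2 levels of 3291 genes that the authors deposited under mRNA and footprint headings: each of 24 columns per count table lay closest to its namesake under 1 heading, with median absolute differences of 0.00485 and 0.0256 log2, against 0.465 and 0.452 for the other heading. Those log2 levels were taken as scaled by length because log2 CPM minus the level rose with log2 gene length at a slope of 1.07 (mRNA) and 1.05 (footprints). The authors' deposited pooled table holds log2 mRNA relative to each ORF's mean over sizes and was only described. The 4 deposited lists of ORF names were not used. Strand use and the assignment of shared reads in counting are not given in the sources used here.

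The count tests used quasi-likelihood in edgeR 4.0.16 under R 4.3.3 with TMM factors, fitted on all libraries of an assay with size as a factor. Tests were an F-test across sizes, contrasts of size pairs and, for translational efficiency, the interaction in 48 libraries. P-values were adjusted by Benjamini-Hochberg over all 3301 genes, with calls under 0.05. Levels are log2 CPM with a prior count of 2. Alternatives were DESeq2 1.42.0, median-of-ratios factors, no filter, a replicate block, and leaving out replicates or doubtful libraries. The 2 libraries of a pool share their cells, so that the pool pairs them; their deviations had a mean correlation of 0.114, with 13 of 24 pools above 0.1. Only some of the tests, and not every contrast or alternative, were checked on simulated data. No rates of recovered differences or of false calls are given, so the check does not show the power of the footprint and translational efficiency tests. Symbols and coordinates come from a RefSeq table of R64, which matched 42 of 42 members and 3260 of the 3301 genes; no member overlaps another annotated gene.

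Members, lists and contrasts were chosen with earlier results of these data known. Counted members with the 6 smallest p across sizes and all counted MCM and ribonucleotide reductase subunits are given per library; from the pooled table, the 8 widest and 4 narrowest spans and all reductase, MCM, ORC and loader genes are given, others by count or range. DUT1, DPB11 and the other members named by value were added after their values were seen. Figures were made in Python 3.11.15 with matplotlib 3.10.9.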

Additional observations from a re-analysis of the deposited data

How the results depend on the processing

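Under median-of-ratios factors, no count of members moved by over 1.5 times. With all libraries the filter removed none of the 3301 genes, so the fit without it was the main fit and could not differ. DESeq2 gave 9 members across sizes in mRNA (1394 of all genes), beside 6 (859) in edgeR. At 70 to 75 fl against 55 to 60 fl it gave 2 members lower (RAD27 and PRI2) and 1 higher (MCM5), beside 1 and 0 in edgeR. Over all genes that contrast had 146 calls in DESeq2 and 51 in edgeR, in either direction. In footprints across sizes DESeq2 gave 2 members (CDC8 and ORC1), of 52 genes in all, beside 1 member of 17 genes in edgeR. Leaving out the footprint libraries under 150000 reads kept only replicate A at 50 and 65 fl. Leaving out those in which 1 gene took over 5% of reads kept only replicate A at 50 fl and replicate B at 60 fl. Counts of calls from these fits are therefore not given. With 1 replicate left out at a time, 0 to 6 members passed across sizes in mRNA, beside 111 to 816 of all genes. At 55 to 60 fl 5 to 6 were higher than at 40 to 45 fl, beside 278 to 918 genes in either direction. At 70 to 75 fl 0 to 2 were lower and 0 higher, beside 3 to 125 genes in either direction. In footprints 0 to 3 members passed across sizes, beside 0 to 515 genes. The 3 came without replicate A, beside 515 of 3301 genes. At 55 to 60 fl 0 to 3 were higher in footprints, beside 0 to 277 genes in either direction. In translational efficiency 0 passed, beside 0 to 8 genes. The 40 fl mRNA library of replicate B, which had the fewest reads, was left out after seeing the data. Without it 4 members passed across sizes, beside 790 of all genes, and 7 were higher at 55 to 60 fl, beside 963 in either direction. The 152 single-member differences under the alternatives include those without the filter, which could not differ. Of the 152, 139 kept direction and call and 6 no longer passed (ORC6, DUT1 and DPB11, above). The other 7, of members that passed in neither fit, changed sign between 55 to 60 fl and 40 to 45 fl when replicate A or C was left out. Their lowest and highest differences with 1 replicate left out were −0.036 and 0.176 log2 for RFC4, −0.082 and 0.287 for TAH11, −0.135 and 0.009 for MCM2, −0.197 and 0.223 for MCM3, −0.066 and 0.199 for MCM4, −0.534 and 0.033 for MCM5, and −0.303 and 0.142 for RNR2. The cause of these changes was not tested.

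Whether a letter (A, B or C) joins libraries of different sizes was not settled. Among pairs with 1 letter, 39 of 84 in mRNA and 34 of 84 in footprints had a correlation of deviations above 0.1. The mean correlation was 0.054 within letters and −0.025 between letters in mRNA. In footprints it was 0.031 within letters and −0.015 between letters. With the replicate block 6 members passed across sizes in mRNA, beside 912 of all 3301 genes. At 55 to 60 fl 7 were higher, beside 1010 genes in either direction. At 70 to 75 fl 1 was lower and 0 higher, beside 54 genes in either direction. In footprints 1 passed across sizes, beside 10 genes, and 0 were higher at 55 to 60 fl, beside 1 gene in either direction. In translational efficiency 0 passed, beside 0 of all genes, also with the pool as block. The footprint call with the block was ORC1 (edgeR adjusted p = 0.0493), in place of CDC8 (0.144). The pooled difference of the members was 0.80 log2 as a median, 0.79 as a mean and 0.74 after the median of all ORFs was taken off at each size, in the authors' deposited table.

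The median count of a member in a library was 42 reads in footprints and 315.5 in mRNA. Whether depth sets the number of footprint calls was not tested. The 23 members without counts have pooled values only.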
